A study of Mus musculus with 27 samples.

Results

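The genes described here mark deep-layer projection neurons of the cerebral cortex, the neurons of layers 5 and 6 that send their axons out of the cortex or down to the thalamus. The 10 genes (Fezf2, Tle4, Tbr1, Etv1, Crym, Sulf1, Hs3st4, Nxph4, Tshz2 and Ccn2) were chosen by symbol out of the 39338 genes and added sequences of the table, from what is known of them in cortex. Earlier results of these data were known at that time, so that the choice cannot be taken as independent of them. All 10 passed the filter on low counts. They were followed across 27 libraries, each made from the sorted motor cortex nuclei of 1 mouse. C9-BACexp mice carry a bacterial artificial chromosome with the human C9ORF72 gene and its expanded hexanucleotide repeat, and the C57BL/6J mice are their littermates without it. All mice received the PHP.eB vector for EGFP-KASH, a green fluorescent protein held at the nuclear envelope, by which transduced nuclei were sorted. Immunostaining in the study placed EGFP-KASH mostly in neurons of C9-BACexp mice, with little in astrocytes or microglia. The stained mice were injected at 2 months of age in hippocampus and motor cortex, and no staining for oligodendrocytes was reported. One set of mice also received a PHP.eB vector for RfxCas13d-N2V8, an RNA-cutting CRISPR effector, with crRNA-13, which targets the repeat-containing C9ORF72 RNA (6 C9-BACexp and 3 C57BL/6J mice). A second set received the effector with NTG, a non-targeted crRNA (6 C9-BACexp and 5 C57BL/6J mice), and the third EGFP-KASH only (3 C9-BACexp and 4 C57BL/6J mice). Both vectors used the CAG promoter, which is not particular to neurons, and the mice given an effector were injected at 6 weeks of age and examined 2 months later. Age and interval were not stated for the mice given EGFP-KASH only, and the sample labels name RfxCas13d for the NTG mice where the study's text names RfxCas13d-N2V8.

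Fezf2 and Tbr1 encode transcription factors that specify the main classes of deep-layer neurons, those of layer 5 that project below the cortex and those of layer 6 that project to the thalamus. Their targets and partners include Tle4, a corepressor of layer 6 neurons, and Etv1 and Crym, which mark layer 5 neurons. Sulf1 and Hs3st4 encode enzymes that edit the sulfate groups of heparan sulfate chains, Nxph4 and Ccn2 encode secreted proteins, and Tshz2 encodes a zinc-finger protein of near-projecting neurons. In motor cortex the layer 5 neurons include the corticospinal neurons that are lost in amyotrophic lateral sclerosis.

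The libraries held 21508829 to 36777972 counts, and 21768 genes were tested. The 3 human C9ORF72 transcripts summed to 64.1 to 103 CPM, counts scaled to the size of the library, in the 15 C9-BACexp libraries and were above 0 in 1 of the 12 C57BL/6J libraries, at 0.436 CPM. EGFP-KASH was present in every library (9.42 to 110 CPM). Some markers of other cells differed between genotypes. Those of oligodendrocytes and vascular cells were called only in the model with factors, which is described below. Summed over 18 genes, markers of striatal projection neurons reached 1190 to 8799 CPM in the C9-BACexp NTG libraries, against 700.2 to 1732 CPM in the C57BL/6J NTG libraries. These sums were mostly Pde10a, which averaged 1703 CPM over all libraries, where the next highest marker, Rarb, averaged 124 CPM. The sums of 12 oligodendrocyte markers were 1276 to 2896 CPM with NTG in C9-BACexp and 394 to 2278 CPM with NTG in C57BL/6J mice, and those of 11 upper-layer genes were 583 to 793 CPM in C9-BACexp and 654 to 1609 CPM in C57BL/6J mice with NTG. With factors, 5 of the 18 striatal and 10 of the 12 oligodendrocyte markers were called higher with NTG (3.95% of all tested genes), and none without factors. For the 3 treatments together, 6 of 18 striatal and 12 of 12 oligodendrocyte markers were called higher with the factors (4.91% of all tested genes), and 5 and 0 without. In the same comparison 6 of 11 upper-layer genes (with 1 higher), 8 of 11 astrocyte and 4 of 10 vascular markers were called lower with the factors (4.79% of all tested genes), and 4, 4 and 0 without. Of the striatal markers Six3 and Isl1 were at 0 in 10 libraries each. In sorted nuclei, fewer nuclei of a type and less RNA per nucleus of that type cannot be told apart.

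Each gene was tested in 1 model of the 6 groups with 4 factors of unwanted variation, the number the study used, and again without the factors. Calls required a change of more than 1.2-fold with an adjusted p below 0.05. On simulated data with variation shared between libraries, the model with factors called many unchanged genes and the model without them did not. The strength of that variation was set by hand and not matched to these libraries. How often this happens in these data, or in the study's own fit, was not tested. A call is therefore described as a rise or fall only where it passed both models.

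Over the 3 treatments together, 2 of the 10 genes rose in C9-BACexp relative to C57BL/6J mice, Sulf1 and Nxph4, and none was called lower in either model (9.7% of all tested genes were called with the factors and 1.6% without). Etv1 had an adjusted p of 0.0358 with the factors but missed the 1.2-fold limit (log2 fold change -0.22, SE 0.07), and was at -0.20 without them (SE 0.12, adjusted p = 0.414). In an alternative chosen after seeing the data, without factors and with striatal and oligodendrocyte marker levels as covariates, Etv1 passed as lower (-0.41, SE 0.13, adjusted p = 0.0365) and Nxph4 did not pass. Sulf1 was 1.42-fold higher without the factors (log2 fold change 0.51, SE 0.12, adjusted p = 0.0301) and 1.43-fold with them (0.51, SE 0.10, adjusted p = 0.00205). Nxph4 was 3.02-fold higher without the factors (1.59, SE 0.40, adjusted p = 0.0412) and 2.94-fold with them (1.55, SE 0.36, adjusted p = 0.00526), at levels near the limit of detection. In an exact permutation test (two-sided, added after seeing the data) that exchanged the genotypes within each treatment, p was 0.000805 for Sulf1 and 0.00236 for Nxph4, and from 0.107 to 0.826 for the other 8 genes. The difference of mean log2(CPM + 0.5) in that test was 0.52 for Sulf1 and 0.80 for Nxph4. The size of the Nxph4 rise thus depended on the scale, and this p does not stand for a 3.02-fold change. The median log2 fold change of the 10 genes was 0.16 with the factors, against -0.02 over all tested genes.

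**Figure D1:**
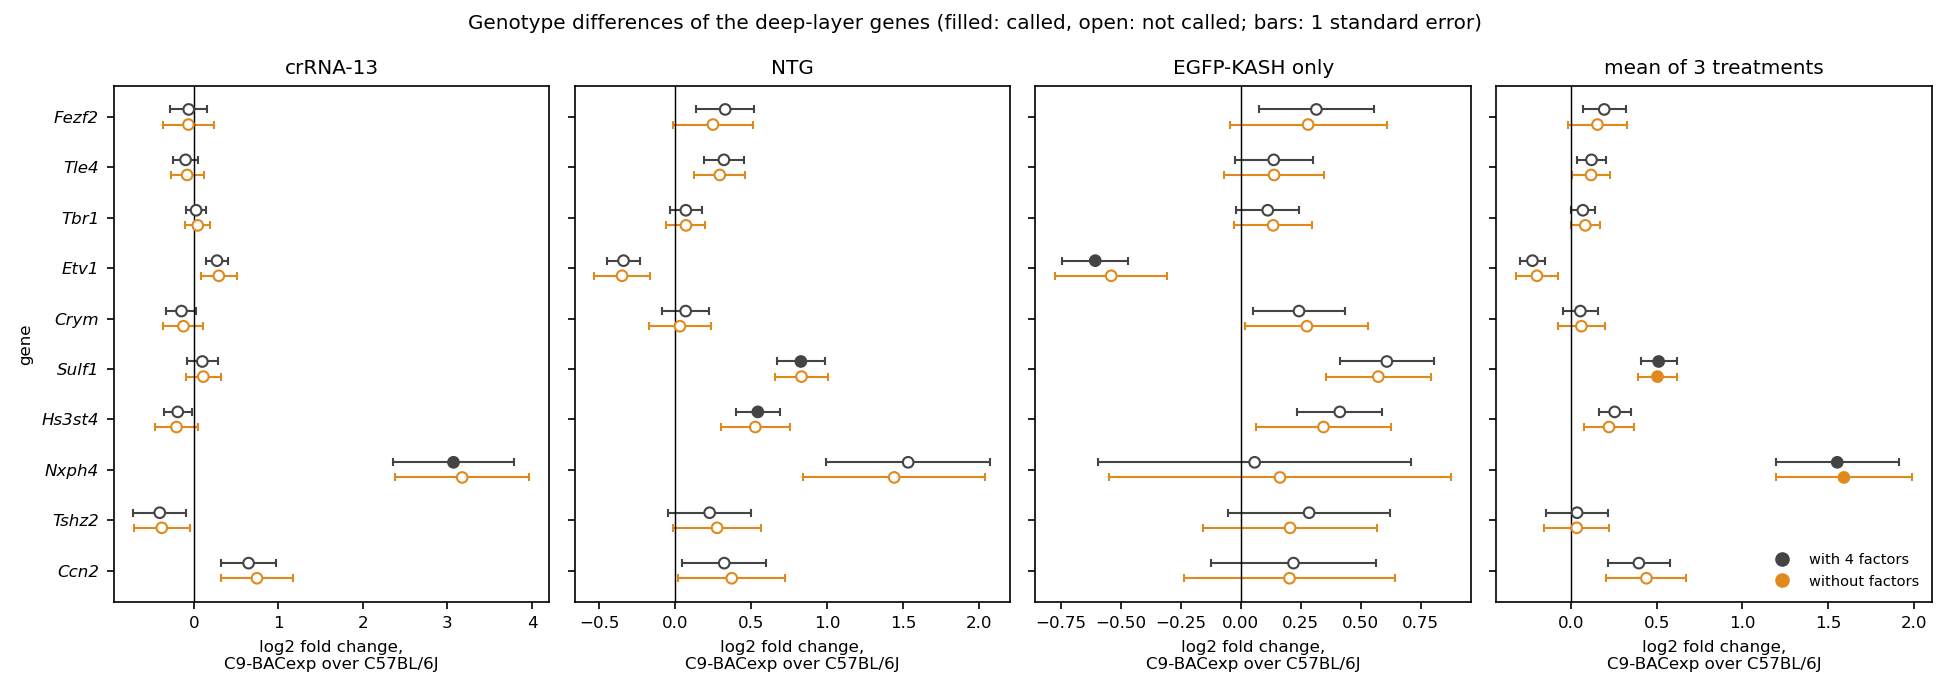
Log2 fold change of each gene in C9-BACexp over C57BL/6J mice with crRNA-13, with NTG, with EGFP-KASH only and over the 3 treatments, from the models with 4 factors (grey) and without factors (orange). Bars are 1 standard error, filled points are called, and the x axes differ between panels. Sulf1 (0.51 in both models) and Nxph4 (1.55 and 1.59) are filled in both models in the panel of the 3 treatments.

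Sulf1 encodes an extracellular sulfatase that removes 6-O-sulfate groups from heparan sulfate. The gene is at chr1:12762501-12931416 (+) of GRCm39, where the annotation places 1 other gene on the opposite strand. With NTG it ranged from 149 to 240.1 CPM in C9-BACexp mice (median 204, n = 6), against 141, 76.1, 110, 121 and 101 CPM in the 5 C57BL/6J mice. All 6 C9-BACexp values were above all 5 C57BL/6J values, and Sulf1 was the 1 gene of the 10 whose ranges were apart in this comparison (2.76% of all tested genes). The log2 fold change was 0.83 in both models (SE 0.16 with and 0.18 without factors), with an adjusted p of 0.00651 with the factors and 0.106 without. The exact permutation test of these 11 mice gave p = 0.00216, the smallest that 462 arrangements allow (two-sided).

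With EGFP-KASH only, Sulf1 had 191, 187 and 154 CPM in C9-BACexp mice, against 126, 175, 94.05 and 81.9 CPM in C57BL/6J mice. The ranges overlapped through 1 C57BL/6J mouse, and the log2 fold change of 0.57 (SE 0.22 without factors, adjusted p = 0.528) was not called. With crRNA-13 it had 148 to 238 CPM (median 159, n = 6) in C9-BACexp mice, against 151, 170 and 153 CPM in C57BL/6J mice. Here the groups overlapped fully, with a log2 fold change of 0.11 (SE 0.20, adjusted p = 0.956). The C57BL/6J mice with crRNA-13 were all above the 5 with NTG (log2 fold change 0.52, SE 0.21, adjusted p = 0.873 without and 0.243 with factors), while in C9-BACexp mice crRNA-13 and NTG overlapped (-0.20, SE 0.17). The difference between the genotype difference with crRNA-13 and that with NTG was -0.73 for Sulf1 (SE 0.24, unadjusted p = 0.00621) and did not pass adjustment (adjusted p = 0.272 with factors), so that the treatments were not shown to differ.

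The rise of Sulf1 was also fitted with values of other cell types, in alternatives chosen after seeing the data. Without factors, and with the mean log2 CPM of the striatal and of the oligodendrocyte markers as covariates, its log2 fold change over the 3 treatments was 0.63 (SE 0.14, adjusted p = 0.00878), and without C9-BACexp NTG replicates 1 and 6 it was 0.55 (SE 0.12, adjusted p = 0.0334). Replicate 6 held the highest striatal sum. Levels of the upper-layer and astrocyte markers, some of which were called in the same comparison, were not entered as covariates. After each group mean was subtracted, Sulf1 had Pearson r = -0.404 and Spearman rho = -0.3 to the upper-layer mean (permutation p = 0.0758 and 0.182, adjusted p = 0.19 and 0.291). Without factors the call was lost when 1 of 5 mice was left out, namely C9-BACexp EGFP-KASH only replicate 2 or 3 (adjusted p = 0.0517 and 0.0682), C57BL/6J EGFP-KASH only replicate 4 (0.0608), or C57BL/6J crRNA-13 replicate 2 or 5 (0.0662 and 0.0768), with log2 fold changes of 0.46 to 0.59 over all 27 mice left out in turn. With the factors it was kept in all 27.

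**Figure D2:**
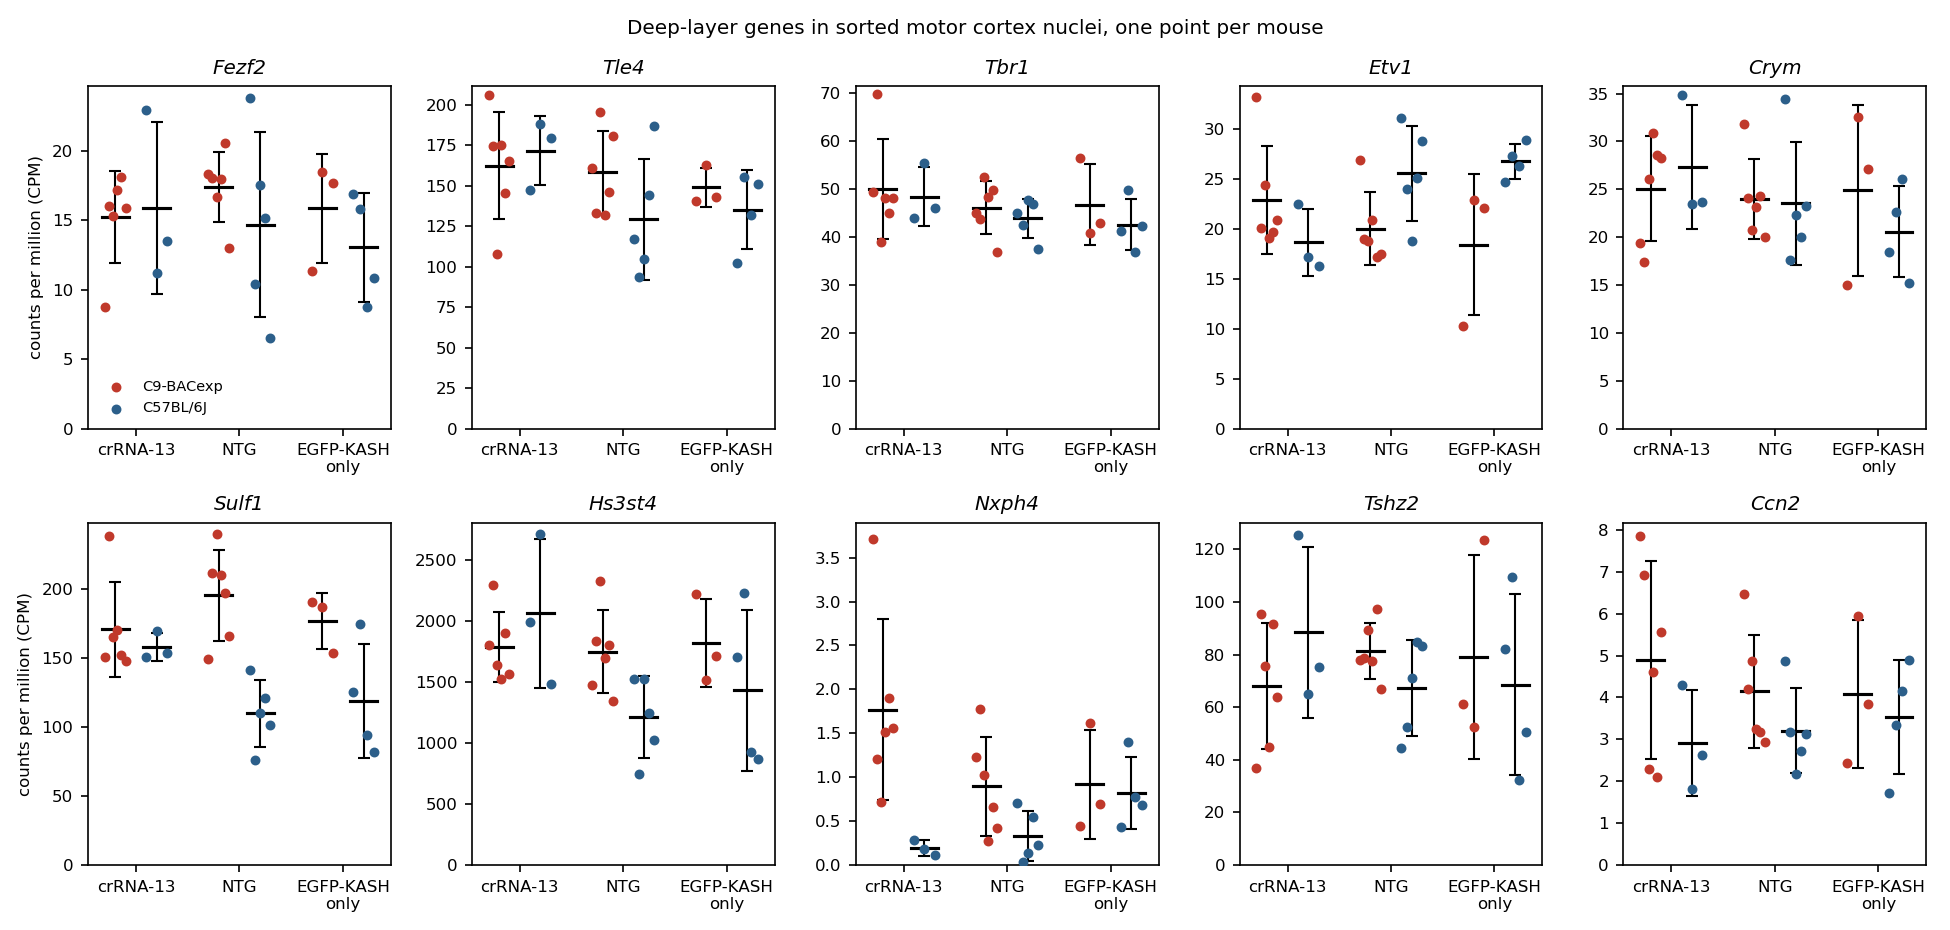
CPM of each of the 10 genes, 1 point per mouse, with C9-BACexp (red) left of C57BL/6J (blue) within crRNA-13, NTG and EGFP-KASH only. Horizontal lines are group means, bars are SD, and each y axis starts at 0. In the NTG pair, Sulf1 lay at 149 to 240.1 CPM in the C9-BACexp mice, above every C57BL/6J mouse, of which the highest had 141 CPM.

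Hs3st4 encodes a 3-O-sulfotransferase that adds the sulfate group made last on heparan sulfate. It lies at chr7:123582092-123998212 (+) of GRCm39, where 3 annotated genes overlap it on the same strand and 3 on the other, so that its counts may hold reads of theirs. With NTG it ranged from 1344 to 2322 CPM in C9-BACexp mice (median 1749, n = 6), against 1524, 742, 1523, 1248 and 1026 CPM in C57BL/6J mice. The highest C57BL/6J mice overlapped the lowest C9-BACexp mice, and the exact permutation test gave p = 0.0216. With the factors Hs3st4 was the second of the 2 genes called with NTG, both higher (0.54, SE 0.14, adjusted p = 0.0463), where 6.45% of all tested genes were called. Without factors it was not (0.53, SE 0.23, adjusted p = 0.593), and neither was any other of the 10 genes with NTG (0.0276% of all tested genes).

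With crRNA-13, Hs3st4 had 1525 to 2290.3 CPM (median 1719, n = 6) in C9-BACexp mice, against 1987, 2706 and 1486 CPM in C57BL/6J mice. The mean was higher in C57BL/6J here, with a log2 fold change of -0.21 (SE 0.26, adjusted p = 0.926 without factors). In C57BL/6J mice 2 of the 3 values with crRNA-13 were above all 5 values with NTG and the third overlapped them, with a log2 fold change of 0.76 (SE 0.27, adjusted p = 0.723 without factors and, for 0.77, 0.0495 with them), outside the limit of 0.01 set for that comparison. Over the 3 treatments Hs3st4 was 1.17-fold higher in C9-BACexp mice (0.22, SE 0.15, adjusted p = 0.461 without factors), with a 95% interval of -0.07 to 0.51.

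Sulf1 and Hs3st4 varied together from mouse to mouse. After each group mean was subtracted, their log2(CPM + 0.5) values had Pearson r = 0.841 and Spearman rho = 0.794 over 27 mice (permutation p = 2e-05 and 6e-05, adjusted p = 0.0009 and 0.0027 over 45 pairs of genes), and r = 0.765 without the 2 mice farthest from the median of Sulf1. Tbr1 followed both, with r = 0.632 and rho = 0.656 to Hs3st4 (permutation p = 0.00017 and 0.0008, adjusted p = 0.00383 and 0.018, r = 0.614 without the 2 farthest mice). For Tbr1 and Sulf1, r was 0.593 and rho 0.572 (permutation p = 0.0021 and 0.00346, adjusted p = 0.0258 and 0.0502, r = 0.487 without the 2 farthest mice). The C57BL/6J NTG mouse and the C57BL/6J EGFP-KASH only mouse with the lowest Sulf1, at 76.1 and 81.9 CPM, also had the lowest Hs3st4 of their groups, at 742 and 865 CPM.

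**Figure D3:**
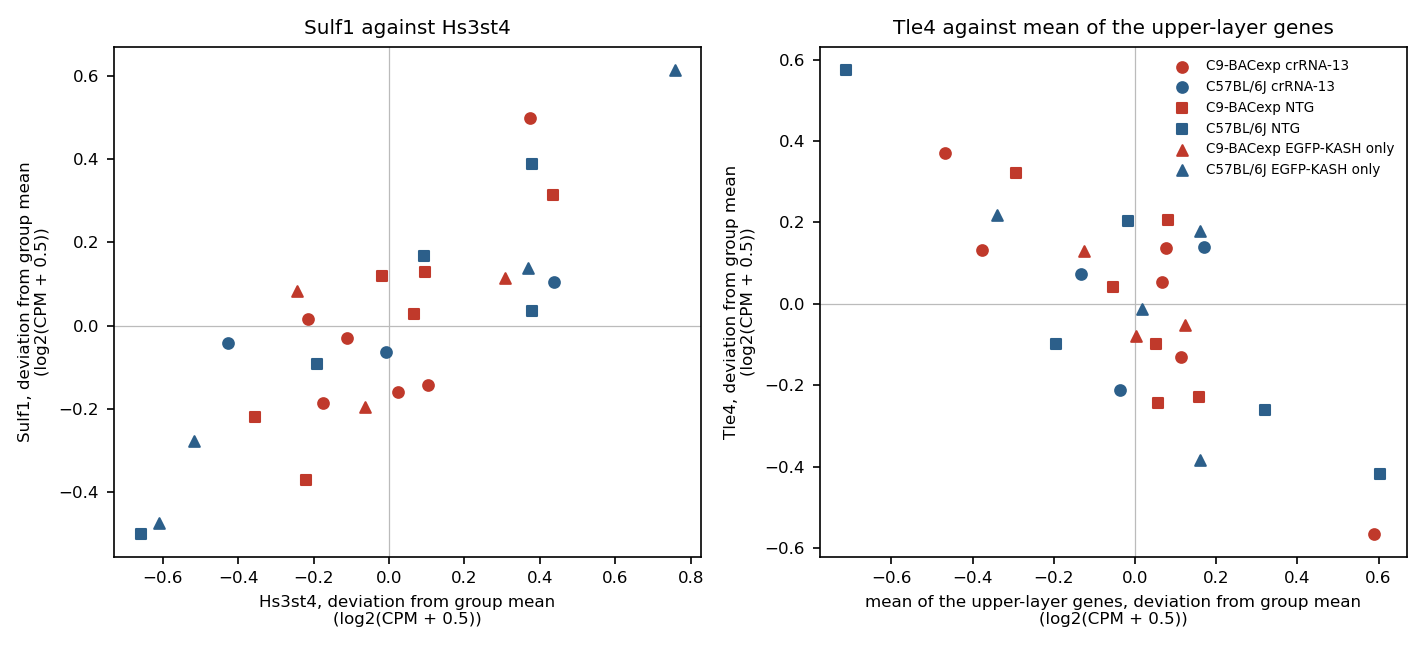
Deviation of each mouse from the mean of its group, in log2(CPM + 0.5), for Sulf1 (y axis) against Hs3st4 (left) and for Tle4 (y axis) against the mean of the 11 upper-layer genes (right), with colour for genotype and shape for treatment. Over the 27 mice, those high in Sulf1 were high in Hs3st4 (r = 0.841) and those high in Tle4 were low in the upper-layer mean (r = -0.8).

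The promoters of these covarying genes differed in base composition. RefSeq promoters (GRCm38.p6, 250 bases before to 50 after the start) matched 6 of the 10 genes, among them Hs3st4 and Tbr1 but not Sulf1. Those of Hs3st4 and Tbr1 are shown because these genes varied together with Sulf1. Capitals mark CG dinucleotides. The bases read 5′ to 3′ on the + strand at chr7:123982578-123982877 for Hs3st4 and chr2:61804203-61804502 for Tbr1, and these positions are of another build and are not interchangeable with those of GRCm39.
Hs3st4: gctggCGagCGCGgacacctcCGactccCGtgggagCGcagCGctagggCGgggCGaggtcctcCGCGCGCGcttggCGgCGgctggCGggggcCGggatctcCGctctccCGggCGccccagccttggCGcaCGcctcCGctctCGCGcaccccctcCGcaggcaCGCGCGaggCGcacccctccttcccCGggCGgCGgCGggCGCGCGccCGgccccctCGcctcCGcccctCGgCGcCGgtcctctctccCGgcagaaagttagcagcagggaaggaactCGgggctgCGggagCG
Tbr1: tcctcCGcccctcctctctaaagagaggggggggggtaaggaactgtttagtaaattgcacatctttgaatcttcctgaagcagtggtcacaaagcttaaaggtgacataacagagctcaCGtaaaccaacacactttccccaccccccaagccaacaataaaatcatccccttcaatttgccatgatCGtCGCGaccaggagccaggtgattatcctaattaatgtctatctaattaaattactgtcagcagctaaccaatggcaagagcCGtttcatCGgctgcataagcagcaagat
The Hs3st4 promoter held 47 CG dinucleotides and 79.3% G and C, and 1.44% of the 32851 promoters of this length held as many. The Tbr1 promoter held 7 and 46.0%, where the median promoter held 7. Neither these nor the other promoters of the 6 genes held AGGTGTGA, a T-box motif of the family of Tbr1, on either strand (1.28% of all promoters did), or CCGGAAGT, an ETS motif of the family of Etv1 (3.89% did).

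Of 16 other enzymes that modify heparan sulfate, 15 were tested, and over the 3 treatments 1 was called, in both models. Of all tested genes, 9.7% were called in this comparison with the factors and 1.6% without, so that the count with factors does not stand out. Hs6st2, a 6-O-sulfotransferase, which adds the group that Sulf1 removes, rose in C9-BACexp mice by a log2 fold change of 0.55 (SE 0.11, adjusted p = 0.0168 without and 0.000335 with factors). With NTG it averaged 129 ± 32.5 CPM in C9-BACexp and 83.2 ± 11.2 CPM in C57BL/6J mice (SD, n = 6 and 5). With the factors alone, 3 of the 15 were called higher with NTG (Ndst1 at 0.50, Hs6st2 at 0.63 and Hs3st5 at 0.62) and 1 lower (Ndst3 at -0.56), and without them none was. Of all tested genes, 3.95% were called higher and 2.51% lower with NTG with the factors, and 0.0276% were called without.

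Nxph4 encodes a neurexophilin, a secreted ligand of neurexins at synapses, and marks layer 6b neurons. It lies at chr10:127361339-127370463 (-) of GRCm39 with no overlapping gene in the annotation. With crRNA-13 it ranged from 0.72 to 3.72 CPM (median 1.54, n = 6) in C9-BACexp mice, against 0.284, 0.187 and 0.109 CPM in C57BL/6J mice. All 6 values were above all 3, the 1 gene of the 10 with ranges apart in this comparison (1.74% of all tested genes), and the exact permutation test gave p = 0.0119, the smallest that 84 arrangements allow. The C57BL/6J libraries held 8.76, 3.87 and 4.11 counts of Nxph4, so that the fold rests on few reads, and the C9-BACexp libraries held 15.9 to 112. The log2 fold change was 3.07 with factors (SE 0.71, adjusted p = 0.0226) and 3.17 without (SE 0.80, adjusted p = 0.221), and Nxph4 was the 1 gene of the 10 called with crRNA-13 with the factors, where 1.02% of all genes were called, and not without (0.0184%).

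With NTG, Nxph4 had 0.276 to 1.78 CPM (median 0.84, n = 6) in C9-BACexp mice, against 0.707, 0.034, 0.138, 0.543 and 0.225 CPM in C57BL/6J mice. These ranges overlapped, with a log2 fold change of 1.44 (SE 0.60, adjusted p = 0.576 without factors). With EGFP-KASH only it had 0.44, 1.62 and 0.697 CPM in C9-BACexp mice, against 0.431, 1.4, 0.775 and 0.678 CPM in C57BL/6J mice, and the log2 fold change was 0.16 (SE 0.71). The genotypes overlapped here as well. Over the 3 treatments its call without factors was kept in 16 of the 27 fits that left out 1 mouse (log2 fold change 1.37 to 1.75, adjusted p = 0.0317 to 0.118). It was lost without C9-BACexp NTG replicates 1 and 6 (1.61, adjusted p = 0.0602) and with the striatal and oligodendrocyte covariates (1.26, SE 0.48, adjusted p = 0.0878). The mice whose absence ended it were C9-BACexp EGFP-KASH only replicates 3 and 5, NTG replicates 1, 2 and 3 and crRNA-13 replicate 1, and C57BL/6J EGFP-KASH only replicates 4 and 5, NTG replicate 2 and crRNA-13 replicates 2 and 5.

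In C57BL/6J mice, Nxph4 with crRNA-13 lay below all 4 mice with EGFP-KASH only (log2 fold change -2.07 in both models, SE 0.72 with and 0.79 without factors), with an adjusted p of 0.256 with and 0.856 without factors. Of the related neurexophilin genes, Nxph3 was called over the 3 treatments with the factors, at a log2 fold change of 0.51 (SE 0.14, adjusted p = 0.0168), and was not called without them (0.50, SE 0.16, adjusted p = 0.113). Ccn2, a secreted matricellular protein and the other layer 6b marker, had 2.09 to 7.86 CPM with crRNA-13 (median 5.08, n = 6) in C9-BACexp mice, against 4.29, 1.82 and 2.62 CPM in C57BL/6J mice. Its values overlapped between genotypes in all 3 treatments, with a log2 fold change over the 3 of 0.44 (SE 0.23, adjusted p = 0.338 without factors). Ccn2 was called over the 3 with the replicate number as a block beside the factors (0.55, SE 0.14, adjusted p = 0.0251), and its sign turned without factors and with the striatal and oligodendrocyte covariates (-0.06, SE 0.22, adjusted p = 0.889).

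Etv1 encodes an ETS transcription factor of layer 5 neurons, and lies at chr12:38828851-38920483 (+) of GRCm39. With EGFP-KASH only it had 10.3, 22.8 and 22.1 CPM in C9-BACexp mice, against 24.7, 27.2, 26.2 and 28.8 CPM in C57BL/6J mice. All 3 C9-BACexp values were below all 4 C57BL/6J values, the 1 gene of the 10 with ranges apart here (6.13% of all tested genes), and the exact permutation test gave p = 0.0286, the smallest that 35 arrangements allow. With the factors it was the 1 gene of the 10 called in this comparison, lower at a log2 fold change of -0.61 (SE 0.14, adjusted p = 0.0198), where 2.74% of all genes were called. Without the factors it was not (-0.54, SE 0.23, adjusted p = 0.599), nor was any other of the 10 (0.0184% of all genes), and with the factors but without C9-BACexp replicate 2, the mouse at 10.3 CPM, the log2 fold change was -0.24.

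With NTG, Etv1 had 17.1 to 26.9 CPM (median 18.8, n = 6) in C9-BACexp mice, against 31.1, 24.0, 18.8, 25.02 and 28.7 CPM in C57BL/6J mice. Its mean was again lower in C9-BACexp mice, with a log2 fold change of -0.35 (SE 0.18, adjusted p = 0.693 without factors) and an exact permutation p of 0.0584. With the factors Etv1 was not called by edgeR (-0.34, SE 0.11, adjusted p = 0.0998) and was called lower by DESeq2 (-0.35, SE 0.11, adjusted p = 0.0439). With crRNA-13 the order was the other way, with 19.0 to 33.1 CPM (median 20.4, n = 6) in C9-BACexp mice, against 22.4, 17.1 and 16.3 CPM in C57BL/6J mice, a log2 fold change of 0.30 (SE 0.22, adjusted p = 0.819). Within C57BL/6J mice the 3 values with crRNA-13 were below all 4 with EGFP-KASH only (log2 fold change -0.52, SE 0.23, exact permutation p = 0.0286), so that Etv1 and Nxph4 were the 2 genes of the 10 with ranges apart in that comparison (4.91% of all tested genes). The difference of the genotype differences between crRNA-13 and NTG was 0.62 for Etv1 (SE 0.17, unadjusted p = 0.00134) and did not pass adjustment (adjusted p = 0.199), and in that comparison 0 of the 10 genes and 0.00459% of all genes were called.

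The transcription factor genes Fezf2 and Tbr1 differed between genotypes by less than the spread between mice. Fezf2, at chr14:10121574-10127680 (+) of GRCm39, had 12.9997 to 20.6 CPM with NTG (median 18.0, n = 6) in C9-BACexp mice, against 23.8, 10.4, 17.6, 15.2 and 6.5 CPM in C57BL/6J mice. The C57BL/6J mice held both the highest and the lowest values, and over the 3 treatments the log2 fold change was 0.15 (SE 0.17, adjusted p = 0.684 without factors). Tbr1, at chr2:61633274-61644458 (+) of GRCm39, averaged 49.95 ± 10.5 CPM with crRNA-13, 46.1 ± 5.54 CPM with NTG and 46.7 ± 8.49 CPM with EGFP-KASH only in C9-BACexp mice, against 48.4 ± 6.1, 43.9 ± 4.11 and 42.5 ± 5.38 CPM in C57BL/6J mice (SD). Tbr1 had the narrowest interval of the 10 genes over the 3 treatments without factors, from -0.08 to 0.25 around a log2 fold change of 0.08.

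Tle4 encodes a Groucho-family corepressor and lies at chr19:14425417-14575572 (-) of GRCm39. With NTG it had 132 to 196 CPM (median 154, n = 6) in C9-BACexp mice, against 117, 93.5, 104, 144 and 187 CPM in C57BL/6J mice. The groups overlapped, and the log2 fold change of 0.29 (SE 0.17, adjusted p = 0.736 without factors) was not called. Across mice within groups, Tle4 ran against the mean of 11 upper-layer genes such as Cux2 and Rorb (r = -0.8, rho = -0.608, permutation p = 0.00011 and 0.00461, adjusted p = 0.0042 and 0.0592 over 40 pairs of a gene and a marker list, r = -0.73 without the 2 farthest mice). It ran with the oligodendrocyte markers (r = 0.672, rho = 0.578, permutation p = 0.00254 and 0.00897, adjusted p = 0.0203 and 0.0598, r = 0.602 without the 2 farthest), and against 8 excitatory neuron markers (r = -0.635, rho = -0.618, permutation p = 0.00155 and 0.00161, adjusted p = 0.0155 and 0.0322, r = -0.582 without the 2 farthest). The C57BL/6J NTG mouse highest in Tle4, replicate 5 at 187 CPM, had the lowest upper-layer sum of its group (654 CPM) and its highest oligodendrocyte sum (2278 CPM). Tle4 is also expressed in striatal projection neurons, and against their markers it had r = 0.224 and rho = 0.204 (permutation p = 0.24 and 0.312, adjusted p = 0.346 and 0.462, r = 0.13 without the 2 farthest). Its log2 fold change over the 3 treatments was 0.12 without factors (SE 0.11, adjusted p = 0.619), and -0.05 with the striatal and oligodendrocyte covariates (SE 0.10, adjusted p = 0.787).

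Crym encodes a thiomorpholine-carboxylate reductase that binds thyroid hormone and is also expressed in striatum. It lies at chr7:119785530-119801514 (-) of GRCm39 and averaged 25.1 ± 5.45 CPM with crRNA-13, 24.0 ± 4.2 CPM with NTG and 24.9 ± 8.96 CPM with EGFP-KASH only in C9-BACexp mice, against 27.3 ± 6.49, 23.5 ± 6.45 and 20.6 ± 4.78 CPM in C57BL/6J mice (SD). The genotypes overlapped in each treatment, and over the 3 the log2 fold change was 0.06 (95% interval -0.20 to 0.33). Tshz2, at chr2:169474613-169913736 (+) of GRCm39 and overlapped by 3 annotated genes on its strand and 8 on the other, averaged 68.1 ± 24.1 CPM with crRNA-13, 81.3 ± 10.6 CPM with NTG and 79.0 ± 38.7 CPM with EGFP-KASH only in C9-BACexp mice, against 88.5 ± 32.5, 67.2 ± 18.2 and 68.6 ± 34.2 CPM in C57BL/6J mice (SD). Single mice of 1 group differed in Tshz2 more than the group means did, as in C57BL/6J mice with EGFP-KASH only (32.2 to 110 CPM), and the log2 fold change over the 3 treatments was 0.03 (95% interval -0.34 to 0.41).

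Treatment itself gave 0 calls among the 10 genes in either genotype. In C9-BACexp mice 0 of 10 were called for crRNA-13 against NTG (0.469% of all tested genes), for crRNA-13 against EGFP-KASH only (0.873%) and for NTG against EGFP-KASH only (0.0322%) by edgeR with the factors. Unadjusted p was under 0.05 for 0, 1 and 0 of them (10.1%, 12.1% and 11% of all tested genes), the 1 being Etv1 (log2 fold change 0.35, SE 0.13, adjusted p = 0.165 for crRNA-13 against EGFP-KASH only). For crRNA-13 against NTG in C9-BACexp mice the 95% intervals without factors were narrowest for Tbr1 (-0.12 to 0.36) and spanned -0.52 to 0.13 for Sulf1, -0.38 to 0.45 for Hs3st4 and -0.08 to 2.04 for Nxph4. In C57BL/6J mice 0 of 10 were called for crRNA-13 against NTG (0% of all genes), for NTG against EGFP-KASH only (0%) and for crRNA-13 against EGFP-KASH only (0.404%), with 4, 1 and 6 at an unadjusted p under 0.05 (11%, 7.78% and 11.2% of all tested genes). DESeq2 with the factors called Hs3st4 in the first of these (log2 fold change 0.77, adjusted p = 0.00176) and Hs3st4 and Etv1 in the last (0.60, adjusted p = 0.0472, and -0.53, adjusted p = 0.0183). Sulf1 was the 1 gene of the 10 with ranges apart between crRNA-13 and NTG in C57BL/6J mice (2.78% of all tested genes). Of 90 exact permutation tests of 1 gene between 2 groups, 5 had p under 0.05, and none passed the Benjamini-Hochberg adjustment over the 90. The smallest p these comparisons allow is 0.00216 to 0.0286, so that no gene could have passed on its own.

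The other pairs that varied together within groups joined the layer 6b markers and Etv1. Etv1 and Ccn2 had r = 0.6 and rho = 0.571 (permutation p = 0.00229 and 0.00695, adjusted p = 0.0258 and 0.0625, r = 0.474 without the 2 farthest mice), and Nxph4 and Ccn2 had r = 0.569 and rho = 0.581 (permutation p = 0.00531 and 0.00446, adjusted p = 0.0478 and 0.0502, r = 0.519 without the 2 farthest mice). Of the 45 pairs of the 10 genes, 5 passed adjustment for Pearson's r, all positive, and r ranged from -0.462 for Fezf2 and Tle4 to 0.841 with a median of 0.145. Ccn2 and Etv1 both ran with the oligodendrocyte markers, Ccn2 at r = 0.703 and rho = 0.654 (permutation p = 0.00021 and 0.00108, adjusted p = 0.0042 and 0.0322, r = 0.637 without the 2 farthest mice) and Etv1 at r = 0.544 and rho = 0.5 (permutation p = 0.00103 and 0.00727, adjusted p = 0.0137 and 0.0592), where r fell to 0.311 without the 2 farthest mice. C9-BACexp crRNA-13 replicate 1 had the highest oligodendrocyte sum of all 27 libraries, 5104 CPM, and also the highest Etv1, Nxph4 and Ccn2 of all, at 33.1, 3.72 and 7.86 CPM. With the striatal and oligodendrocyte covariates added to the model without factors, the log2 fold change between genotypes over the 3 treatments was -0.41 for Etv1 (-0.20 without covariates), 1.26 for Nxph4 (1.59 without) and -0.06 for Ccn2 (0.44 without).

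**Figure D4:**
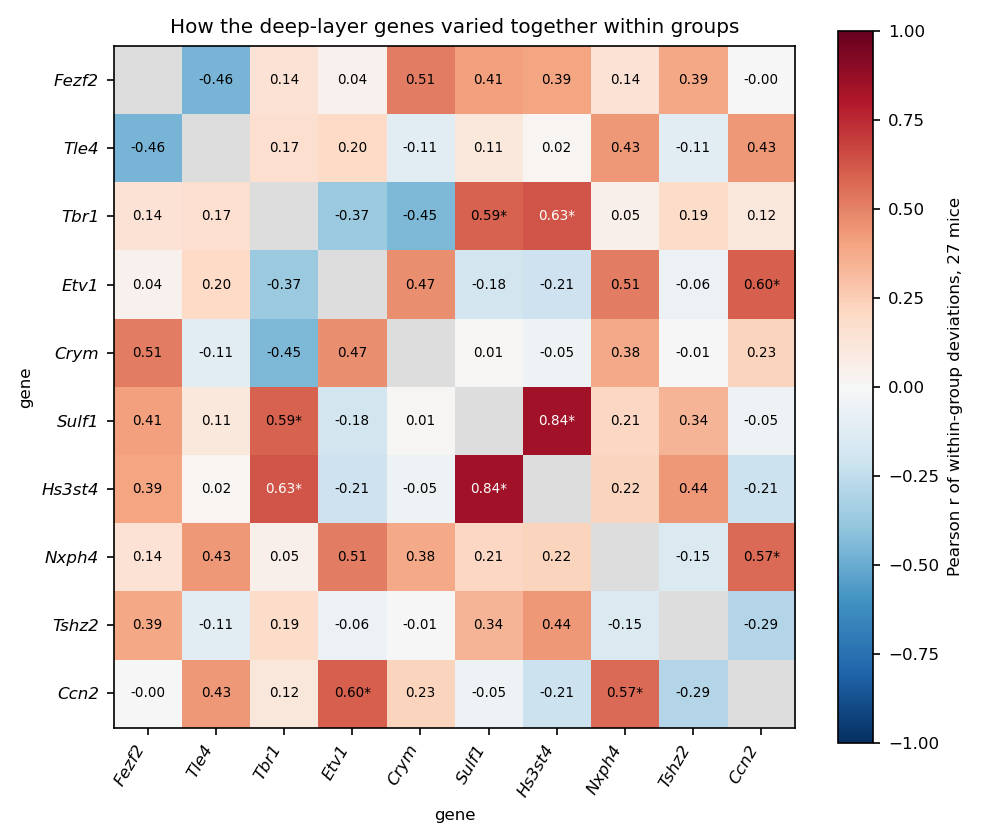
Pearson r between each pair of the 10 genes over 27 mice, after the mean of each group was subtracted from log2(CPM + 0.5), from blue (negative) to red (positive). Stars mark the 5 pairs with an adjusted p under 0.05, of which Sulf1 and Hs3st4 had the highest r (0.841).

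Of the 11432 other tested genes averaging 5 CPM or more, those whose deviations within groups were most like the mean of the 10 genes were Adam18 (r = 0.731), Nxph3 (0.723), Kcna6 (0.7), Rai14 (0.698), Zfpm2 (0.685), Spon1 (0.684), Srl (0.684) and Tet1 (0.684), over 27 mice. For 9 of the 10 single genes the most alike were Sdk2 to Hs3st4 (r = 0.879), Echdc2 to Fezf2 (0.864), Fam117b to Ccn2 (0.846), Parm1 to Etv1 (0.834), Tmem178 to Tbr1 (0.827), Grm8 to Sulf1 (0.82), Asl to Tshz2 (0.794), Pcdh19 to Crym (0.762) and Vps72 to Nxph4 (0.71). These are the highest values of a search over many genes in few mice, and the r that chance would give in such a search was not computed. Among the genes named, Nxph3 and Zfpm2 are themselves known in layer 6 neurons and Parm1 in layer 5 neurons.

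Of 26 other deep-layer genes, all tested, 2 rose over the 3 treatments in both models. Of all tested genes, 9.7% were called in this comparison with the factors and 1.6% without. Inpp4b, a lipid phosphatase, was higher in C9-BACexp mice by a log2 fold change of 0.41 (SE 0.09, adjusted p = 0.0277 without and 0.00236 with factors), and with EGFP-KASH only it averaged 171 ± 19.6 CPM in C9-BACexp and 102 ± 11.5 CPM in C57BL/6J mice (SD, n = 3 and 4). Svil, which encodes the actin-binding supervillin, was higher by 0.69 (SE 0.17, adjusted p = 0.0391 without and 0.00487 with factors). With factors 8 of the 26 were called higher and 1 lower (4.91% and 4.79% of all tested genes), with a median log2 fold change of 0.16. Without factors 2 were called higher and 0 lower. With NTG and factors 5 of the 26 were called higher and none lower (3.95% and 2.51% of all tested genes). Among them were Grik3 (0.69), Osr1 (1.41), Bcl11b (0.79) and Foxp2 (0.60), of which Bcl11b and Foxp2 are also expressed in striatal projection neurons. Without factors none of the 26 was called with NTG (0.0276% of all tested genes).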

How the data were processed

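RNA was sequenced from sorted EGFP-KASH+ motor cortex nuclei of 27 mice. The deposited values are expected counts, estimated by the authors from both mature and intron-containing mouse transcripts (NCBI Annotation Release 109) by Salmon 1.10.0, with added human C9ORF72 and EGFP-KASH sequences, and summed to genes with tximport. They are not normalized between libraries, and the submitters' processing notes also name R 4.3.1. Reads of overlapping genes may be split between them. Counts were rounded, filtered with filterByExpr (smallest count 10, smallest total 15), scaled by TMM and tested with the robust quasi-likelihood test of edgeR 4.0.16 in R 4.3.3, in 1 model of 6 groups with 4 factors of unwanted variation from the residuals of a first fit. The study used limma-trend with 4 RUVSeq factors of a kind it does not name, so this choice is an assumption. Standard errors are the log2 fold change over the root of F, and 95% intervals are normal.

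p-values were adjusted by the Benjamini-Hochberg method over all tested genes, jointly for 5 comparisons (the 3 between genotypes within a treatment and, in C9-BACexp mice, crRNA-13 set against each of the other treatments), and within each other comparison. The limits were a fold change of 1.2 and an adjusted p of 0.05, except in C57BL/6J mice for crRNA-13 against NTG, where they were 1.25 and 0.01. CPM use TMM library sizes. Exact permutation tests, two-sided, compared mean log2(CPM + 0.5), and correlations used 100000 permutations within groups and Benjamini-Hochberg adjustment within each family. Alternatives were edgeR without and with 2 factors, DESeq2 1.42.0, limma 3.58.1, RLE factors, no filter, only the groups compared, a replicate block and leaving out each mouse. The scripts were tested on simulated data, where the factors raised false calls when libraries shared variation of a strength set by hand. The 10 genes and all lists were chosen with earlier results of these data known. Named genes were the 10 genes, of each other list up to 4 called members with the smallest p, and the genes most alike by Pearson r, of which some items are not reported here. Positions are from GENCODE vM39. Labels name no batch, so that a batch shared by the mice of a group cannot be told apart from the group. In the model with factors, p-values measure the spread between mice left after the 4 factors, and elsewhere the spread between mice.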

Additional observations from a re-analysis of the deposited data

Results flagged for a closer look

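In 4 of 40 sets of values, each of 1 gene in 1 group of 4 to 6 mice, 1 mouse lay apart from the rest by Dixon's test. Chance does this in about 1 of 20 sets, but these sets share the same mice and are not independent. Crym had 31.8 CPM in C9-BACexp NTG replicate 1, above the other 5 mice of its group (20.0 to 24.3 CPM). Fezf2 had 8.79 CPM in C9-BACexp crRNA-13 replicate 1, below the others (15.3 to 18.1 CPM). C9-BACexp crRNA-13 replicate 2 was high in both Tbr1, at 69.8 CPM, and Sulf1, at 238 CPM, where the next highest mice of the group had 49.4 and 170.2 CPM.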

How the results depend on the processing

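The counts of called genes among the 10 depended on the factors. With NTG, where edgeR with 4 factors called 2, the count between genotypes was 0 without factors by edgeR or limma-trend and with only the groups compared, 1 with 2 factors, by DESeq2 without factors, with RLE size factors and with no filter on low counts, 3 with the factors but without C9-BACexp NTG replicates 1 and 6, 3 by DESeq2 with 4 factors, where Etv1 was added as lower, and 1 with the replicate block. Of 2 alternatives chosen after seeing the data, the striatal and oligodendrocyte covariates gave 1 and leaving out both of those mice without factors gave 0. With crRNA-13, 1 became 0 without factors by edgeR or limma-trend, with 2 factors, with only the groups compared, with the replicate block and in both added alternatives. With EGFP-KASH only, 1 became 2 by DESeq2 with 4 factors, and 0 with 2 factors, without factors by each tool, with only the groups compared and in both added alternatives. By DESeq2 with 4 factors, in C57BL/6J mice 0 became 1 between crRNA-13 and NTG and 2 between crRNA-13 and EGFP-KASH only (1 with the replicate block), and 1 for the difference of the genotype differences. Over the 3 treatments the count of 2 became 1 without factors and without C9-BACexp NTG replicates 1 and 6, where Nxph4 was lost, and 3 with the replicate block, where Ccn2 was added. With the covariates it was 2, of which Nxph4 was lost and Etv1 was added as lower.

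Leaving out 1 mouse gave 1 to 3 calls with NTG, 0 to 1 with crRNA-13, 0 to 2 with EGFP-KASH only and 0 to 1 in C57BL/6J mice between crRNA-13 and EGFP-KASH only. Over the 3 treatments it gave 2 to 4 with factors and 0 to 2 without, so 0 to 4 in all. No called gene changed sign under any of these. The calls over the 3 treatments of Sulf1 and Nxph4 held in 11 of 11 listed alternatives other than leaving out a mouse (adjusted p = 3.25e-05 to 0.0301 and 0.000209 to 0.0412). In this comparison the fit of only the groups compared held all 6 groups, so that it repeated the edgeR fit without factors. Nxph4 was lost in both alternatives added after seeing the data (adjusted p = 0.0878 and 0.0602). Among the listed alternatives, the calls of Hs3st4 with NTG, Nxph4 with crRNA-13 and Etv1 with EGFP-KASH only held in 3 of 11, 5 of 10 and 5 of 10. The calls of Hs3st4 were lost without 7 of 11 mice, of Nxph4 without C57BL/6J crRNA-13 replicate 2 or 5, and of Etv1 without C9-BACexp replicate 2 or C57BL/6J replicate 5. Same-numbered mice of different groups had r = -0.162 to 0.286 over 48 pairs, 10 over 0.1, against a mean of -0.00324 over the other pairs. No range was computed for the other pairs, so that this cannot decide whether the numbers pair samples. Tests over all genes that dropped the factors called 349 genes over the 3 treatments, against 2111 with them. Between genotypes the counts were 4 and 222 with crRNA-13, 6 and 1405 with NTG, and 4 and 597 with EGFP-KASH only, without and with factors. A count of 3 is 0.0816 to 0.139 CPM in a library, which limits Nxph4, and covers counting error only.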
